A study of Mus musculus with 2 samples.

Results

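Collagen genes were followed across the stromal cells of the mouse colon. The group was chosen by symbol alone: every gene whose symbol reads Col, a number, a and a number, which gave 44 of the 33083 genes listed. The question here is how these genes were divided among fibroblast types, endothelium and epithelium, in the library of each genotype. Of the 44 genes, 43 had at least 1 UMI in the cells kept, and Col10a1 had none in either library.

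The series concerns tuft cells of the gut and compared 2 groups of mice. One was wild type (WT), and the other was a transgenic Alzheimer's disease (AD) model, a strain whose transgenes are driven by a Thy1 promoter, which is active in neurons. The age and sex of the mice, and how many were pooled, are not given in the sources used here. Cells were freed from minced colon by trypsin in the presence of DNase I and captured on the 10x platform, 1 library per genotype, and stromal cells were present although the series' design text speaks of colonic epithelium. The arms with tuft-deficient mice, organoids and succinic acid were not analysed here.

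With 1 library per genotype there was no replicate and no test between genotypes. Every difference between WT and AD given here is a difference between 2 libraries. Genotype, animals, tissue taken, dissociation and sequencing run cannot be told apart. Pairs of values stand in the order WT, AD. Levels are in CPM, the UMIs of a gene for every 1000000 UMIs of its cell class, and parentheses after a value hold exact 95% intervals that cover counting error only. A UMI marks a single captured transcript molecule, counted at its 3′ end and not divided by transcript length, so shares of UMIs among genes were not read as protein amounts. The libraries held 4146 and 6675 barcodes with 26898149 and 38731915 UMIs, of which 1550 and 4691 cells passed the filters (37.4% and 70.3%), with a median of 3724.5 and 3720 UMIs per cell. The libraries shared 7 barcodes, 2 of them among kept cells. AD cells of each fibroblast type, endothelium and epithelium carried more immunoglobulin RNA than WT cells, 1.05% against 0.0212% of UMIs in fibroblast-like cells. An unnamed cluster with the pancreatic-type enzyme genes Ctrb1, Cpa1 and Prss2 among its leading genes held 0 and 9 cells. A cluster led by Spp1, Clu and Ankrd1, counted as epithelial-like, held 0 and 13 cells. Whether the AD library held tissue other than colon, also among its stromal cells, was not tested.

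Collagens are secreted matrix proteins whose chains wind around each other into stiff helices. Fibrillar collagens form the cables of connective tissue, fibril-associated collagens decorate those cables, collagen VI builds beaded filaments around cells, and collagen IV forms the sheet of every basement membrane, including the sheets under the gut epithelium and around its capillaries. In the gut wall fibroblasts of several kinds make most of this matrix: Pi16 fibroblasts lie in the submucosa and around vessels, Adamdec1 fibroblasts fill the lamina propria between the crypts, and fibroblasts rich in Bmp ligands and Wnt5a line the epithelium itself.

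Cell classes were named by markers that include no collagen gene, and the collagen genes were left out of clustering, so no class was chosen by its collagen level. The marker levels given here are from those same lists. Fibroblast-like cells numbered 237 and 792. Among them, the Pi16 type (91 and 363 cells) held Pi16 itself at 463 and 683 CPM, against 5.17 and 9.74 CPM in the Adamdec1 type. The Adamdec1 type (74 and 219 cells) held Adamdec1 at 3642 and 3380 CPM, against 2.91 and 5.83 CPM in the Pi16 type. Whole marker lists were less separate. The 10 Pi16 markers summed to 4640 and 4531 CPM in the Pi16 type and 1228 and 1311 CPM in the Adamdec1 type. At least 3 of them were found in 76.9% and 74.9% of Pi16 cells and in 54.1% and 48.9% of Adamdec1 cells. The 8 Adamdec1 markers summed to 6009 and 5309 CPM in the Adamdec1 type and 1259 and 1082 CPM in the Pi16 type. Another type (23 and 34 cells), high in Bmp ligands and Wnt5a, held Bmp5 at 622 and 486 CPM and Wnt5a at 327 and 755 CPM, and also carried Adamdec1 at 2434 and 3115 CPM. The other 49 and 176 fibroblast-like cells matched no type and stayed unnamed. Endothelial-like cells (99 and 86) held the adhesion gene Cdh5 at 932 and 741 CPM, and epithelial-like cells (561 and 1551) held Epcam at 1317 and 1374 CPM.

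Promoter sequence is shown for 4 members whose levels set the stromal types apart. Col4a5 and Col4a6 are a pair of neighbouring genes with start sites 1343 bases apart on opposite strands, and both stood high in the Bmp and Wnt5a type. Col6a3 was shared by the Pi16 and the Bmp and Wnt5a types, and Col8a1 was found in Pi16 fibroblasts and in secretory epithelium. The bases run from 250 bases before the start up to the first annotated exon, and so end 50 bases before the start for Col4a5, 20 for Col4a6, 31 for Col6a3 and 1 for Col8a1. They are taken from RefSeq starts on build GRCm38.p6, 5′ to 3′ on the gene's strand: chrX:141475169-141475369 for Col4a5 (+), chrX:141474096-141474326 for Col4a6 (−), chr1:90844002-90844221 for Col6a3 (−) and chr16:57754738-57754987 for Col8a1 (−). Capitals mark matches to any of 3 motifs, searched on both strands: the box spelled CCAAT, the box of TATA-type promoters, searched as TATAAA, and the box bound by Sp factors, called the GC box and searched as GGGCGG.
Col4a5: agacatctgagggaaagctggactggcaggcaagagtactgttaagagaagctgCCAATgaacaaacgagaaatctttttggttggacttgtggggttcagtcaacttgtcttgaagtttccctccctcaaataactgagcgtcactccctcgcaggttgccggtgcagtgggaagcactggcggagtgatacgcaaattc
Col4a6: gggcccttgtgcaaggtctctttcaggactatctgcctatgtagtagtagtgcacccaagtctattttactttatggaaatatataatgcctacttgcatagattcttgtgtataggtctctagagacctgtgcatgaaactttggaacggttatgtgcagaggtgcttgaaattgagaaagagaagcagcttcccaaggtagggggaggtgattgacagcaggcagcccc
Col6a3: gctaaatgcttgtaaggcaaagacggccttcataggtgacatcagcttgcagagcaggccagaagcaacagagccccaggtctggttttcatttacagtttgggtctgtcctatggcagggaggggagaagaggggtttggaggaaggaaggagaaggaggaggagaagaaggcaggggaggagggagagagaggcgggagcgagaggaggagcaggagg
Col8a1: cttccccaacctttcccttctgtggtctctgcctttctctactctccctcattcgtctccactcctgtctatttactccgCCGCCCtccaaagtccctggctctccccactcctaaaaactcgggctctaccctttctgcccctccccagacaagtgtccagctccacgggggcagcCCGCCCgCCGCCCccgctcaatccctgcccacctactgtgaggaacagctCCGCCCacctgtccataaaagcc
The printed bases of Col8a1 hold 4 matches to the GC box on the reverse strand, those of Col4a5 hold 1 CCAAT box, and those of Col4a6 and Col6a3 hold no match. In the full 250 bases Col4a5 and Col4a6 hold 1 GC box each. None of these matches overlapped. RefSeq promoters matched 35 of the 44 members. In the 250 bases before the start, 12 of the 35 held a CCAAT box, 5 a TATA box and 21 a GC box, beside 33.8%, 12.4% and 32.7% of all 32851 promoters in the table.

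Fibroblast-like cells carried most of the collagen RNA of both libraries. Collagen genes made up 2.03% (2.00 to 2.06) and 2.09% (2.07 to 2.11) of their UMIs, and these cells held 85.9% and 91.3% of all collagen UMIs in kept cells. Endothelial-like cells stood at 0.261% (0.244 to 0.280) and 0.270% (0.249 to 0.291), 7.78-fold (7.26 to 8.34) and 7.75-fold (7.18 to 8.39) lower. Epithelial-like cells stood at 77.8 CPM (72.0 to 83.9) and 129 CPM (124 to 135). The order fibroblast, endothelium, epithelium was the same in both libraries, and no neighbours in it had overlapping intervals.

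The fibroblast types differed little in total. Collagen made up 1.86% (1.82 to 1.91) and 2.10% (2.07 to 2.12) of UMIs in the Pi16 type, 2.19% (2.14 to 2.24) and 2.40% (2.37 to 2.43) in the Adamdec1 type, and 2.21% (2.12 to 2.31) and 2.56% (2.48 to 2.64) in the Bmp and Wnt5a type. The Pi16 type stood below the Adamdec1 type in each library, at 0.850 (0.823 to 0.879) and 0.876 (0.860 to 0.891) of its level. Single cells overlapped widely. In cells thinned to 1000 UMIs each, Pi16 cells held a median of 16 collagen UMIs (from 4 to 43) and 19 (from 2 to 51), Adamdec1 cells 20 (from 6 to 48) and 22 (from 5 to 52), and Bmp and Wnt5a cells 22 (from 10 to 28) and 23 (from 12 to 43). Endothelial-like cells held a median of 2 (from 0 to 12) and 2 (from 0 to 13), and 18 of 85 and 14 of 72 of them held none. No thinned cell of the 3 fibroblast types was without collagen UMIs. A median of 7 and 8 different members was found in Pi16 cells, 8 and 9 in Adamdec1 cells, 8 and 8 in Bmp and Wnt5a cells, and 2 and 2 in endothelial-like cells.

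**Figure D1:**
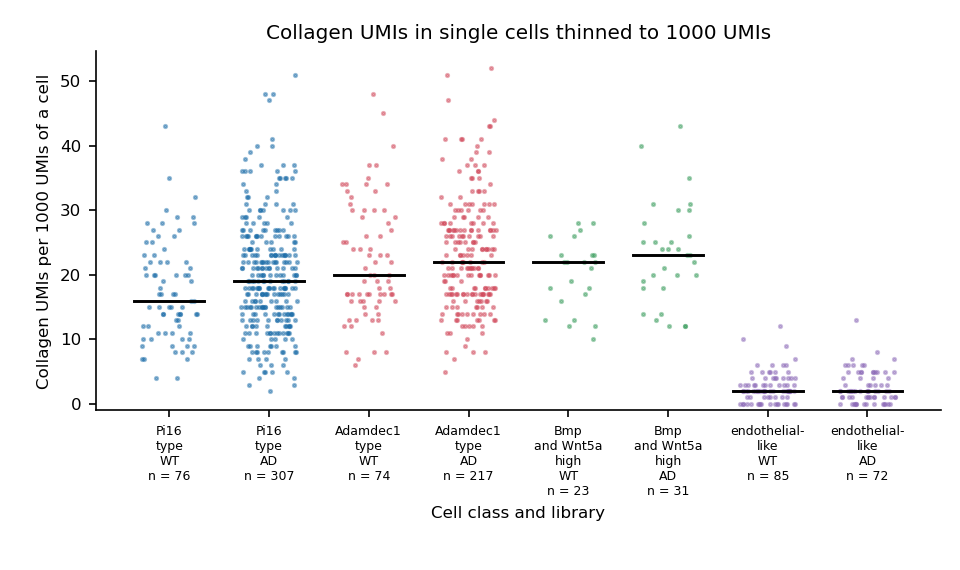
Collagen UMIs per cell after thinning each cell to 1000 UMIs, by cell class and library. Each point is a cell, bars are medians, and n is the number of thinned cells. The fibroblast types overlap, with medians of 16 to 23, and endothelial-like cells lie below at a median of 2.

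Fibrillar collagens, the main structural chains, gave 64.2% and 64.3% of the collagen UMIs of fibroblast-like cells. Col3a1, Col1a2 and Col1a1, which encode the chains of type III and type I collagen, were among the 4 members with the most UMIs in every fibroblast type. Col3a1 stood at 4366 and 4922 CPM in the Pi16 type, 6792 and 6693 CPM in the Adamdec1 type, and 5677 and 5168 CPM in the Bmp and Wnt5a type. Col1a2 stood at 3049 and 3755 CPM, 3471 and 4321 CPM, and 5109 and 5884 CPM in the same types. Col1a1, the partner chain of Col1a2, stood at 2442 and 2787 CPM, 2866 and 2955 CPM, and 2882 and 3204 CPM. For each of these 3 genes, the levels in the 3 fibroblast types lay within 2-fold of each other in both libraries. Col5a2 and Col5a1, chains of type V collagen that nucleates fibrils, were lower in the Pi16 than in the Adamdec1 type, at ratios of 0.485 (0.410 to 0.573) and 0.540 (0.495 to 0.589) for Col5a2 and 0.766 (0.605 to 0.967) and 0.773 (0.682 to 0.876) for Col5a1. Col5a2 passed 2-fold in the WT library only, and that contrast between libraries was not tested. Cartilage-type fibrillar genes were almost absent from fibroblast-like cells: Col2a1 had 0 UMIs in both, Col11a1 had 2 and 6, and Col11a2 had 0 and 1. A count of 0 allows a level of up to 2.98 and 1.01 CPM there, taking 3 counts as the floor.

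Between the Pi16 and Adamdec1 types, 19 members held at least 30 UMIs over the 2 types in both libraries. Of these, 3 were at least 2-fold higher in the Pi16 type in both libraries, beside 3.56% of all genes tested, and 4 were at least 2-fold lower, beside 5.49%. Both shares, 15.8% and 21.1% of members, lay above those backgrounds, which had the same minimum. That minimum was met by the 2 types summed, so a member could pass through 1 type alone. Col6a5 did so in WT, with 30 Adamdec1 and 0 Pi16 UMIs. The shares are thus no measure of how far the types differ. The median log2 ratio over the members tested in each library was −0.42 in WT and −0.44 in AD, beside 0.00 and 0.01 over all genes.

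Col14a1, a fibril-associated collagen that binds the surface of type I fibrils, had the most UMIs of the 3 members higher in the Pi16 type. It stood at 3136 and 3224 CPM in the Pi16 type, 620 and 801 CPM in the Adamdec1 type, and had no UMI in the Bmp and Wnt5a type of either library. All 3 types thus lay apart in both libraries. The Pi16 type was 5.06-fold (4.39 to 5.84) and 4.03-fold (3.73 to 4.35) above the Adamdec1 type, and the Adamdec1 type at least 18.9-fold and at least 41.7-fold above the Bmp and Wnt5a type, against a floor of 3 counts over that class. At most 10% mitochondrial UMIs, the first ratio in WT was 7.83. Col14a1 was found in 89 of 91 and 351 of 363 Pi16 cells and in 61 of 74 and 187 of 219 Adamdec1 cells, which were deeper.

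Col6a3, the large chain of collagen VI, stood at 1457 and 1594 CPM in the Pi16 type against 411 and 482 CPM in the Adamdec1 type, 3.55-fold (2.96 to 4.27) and 3.31-fold (2.99 to 3.66) higher. Its partner chains Col6a1 and Col6a2 did not follow: Col6a1 stood at 0.679 (0.585 to 0.787) and 0.759 (0.700 to 0.824) of the Adamdec1 level, and Col6a2 at 0.732 (0.632 to 0.848) and 0.717 (0.664 to 0.774). Chains of the same protein thus pointed opposite ways between these types. In the Bmp and Wnt5a type all 3 chains were high, with Col6a3 at 895 and 1286 CPM, 2.18-fold (1.65 to 2.86) and 2.67-fold (2.25 to 3.15) above the Adamdec1 type. Col6a3 depended on how the types were drawn. All fibroblast-like cells, unnamed ones included, were instead split by the larger of their marker sums. Col6a3 was then 1.51-fold and 2.00-fold higher in the Pi16 type, which ends the 2-fold call in WT.

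Col8a1, a short network-forming collagen of vessel and matrix sheets, stood at 560 and 494 CPM in the Pi16 type and at 38.8 and 111 CPM in the Adamdec1 type. The ratio was 14.4 (8.54 to 26.3) in WT and 4.45 (3.63 to 5.48) in AD. It was 3.24 in WT with types drawn by the larger marker sum, 21.9 in WT with thinned cells, and 7.17 in AD with collagen genes kept in clustering. A UMI of Col8a1 was found in 48 of 91 and 186 of 363 Pi16 cells and in 1 of 23 and 0 of 34 Bmp and Wnt5a cells, although the median Bmp and Wnt5a cell was deeper, with 4059 and 3837 UMIs where the median Pi16 cell had 2862 and 2597.

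In the other direction, Col15a1, whose protein bridges basement membranes and the fibrils beneath them, stood at 1331 and 1542 CPM in the Adamdec1 type, 96.2 and 144 CPM in the Pi16 type, and 21.8 and 19.2 CPM in the Bmp and Wnt5a type. The Adamdec1 type was 13.8-fold and 10.7-fold above the Pi16 type, and 61.0-fold and 80.3-fold above the Bmp and Wnt5a type. Col15a1 was found in 69 of 74 and 216 of 219 Adamdec1 cells. Col12a1, a fibril-associated collagen of tissues under tension, stood at 806 and 933 CPM in the Adamdec1 type and 90.4 and 79.9 CPM in the Pi16 type, 8.92-fold and 11.7-fold apart. Unlike Col15a1 it was also high in the Bmp and Wnt5a type, at 720 and 1209 CPM. Ratios of both genes moved by more than 1.5 times with the settings: with types drawn by the larger marker sum, the Pi16 over Adamdec1 ratio was 0.201 and 0.252 for Col15a1 and 0.223 and 0.179 for Col12a1. With thinned cells Col12a1 gave 0.199 and 0.0458, and at most 10% mitochondrial UMIs it gave 0.0638 in WT. Col15a1 in AD gave 0.0241 at that limit and 0.0311 with collagen genes kept in clustering.

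Col27a1, a fibrillar collagen, was 12.4-fold and 5.57-fold higher in the Adamdec1 than in the Pi16 type, from 70 and 195 UMIs against 5 and 41. With 1000 UMIs required per cell the Pi16 over Adamdec1 ratio in WT was 0.0531 in place of 0.0806, and as a mean over cells 0.0461. Col6a5, a lesser chain of collagen VI, had 30 UMIs in Adamdec1 and 0 in Pi16 cells of WT, at least 8.87-fold higher, and 97 against 2 UMIs in AD, a ratio of 56.8. Its absence from Pi16 cells rests on few counts. The leading pair did not exclude each other. At full depth, 56 of 74 and 184 of 219 Adamdec1 cells carried Col14a1 and Col15a1 together, against 10 of 91 and 58 of 363 Pi16 cells. These counts are not matched for depth. The median Adamdec1 cell had 5397 and 4526 UMIs, and the median Pi16 cell 2862 and 2597.

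**Figure D2:**
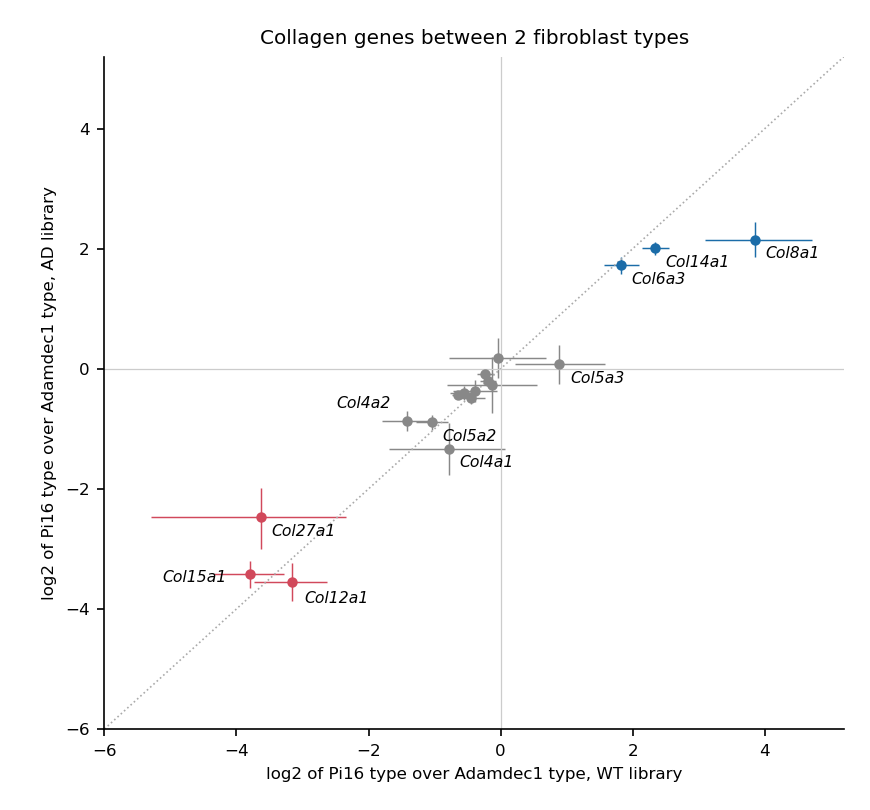
Log2 ratio of the Pi16 over the Adamdec1 type for each member, in WT (x) against AD (y), with 95% counting intervals. Blue and red points are at least 2-fold higher or lower in both libraries, and Col6a5, with no UMI in WT Pi16 cells, is not drawn. Col6a3, Col14a1 and Col8a1 lie at the upper right and Col15a1, Col12a1 and Col27a1 at the lower left.

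By family, fibril-associated collagens gave 18.0% and 16.6% of collagen UMIs in the Pi16 type against 6.97% and 7.90% in the Adamdec1 type. Multiplexins, the family of Col15a1 and Col18a1, gave 0.564% and 0.714% against 6.15% and 6.53%. Fibrillar collagens gave 59.0% and 60.9% in the Pi16 type and 69.1% and 67.5% in the Adamdec1 type. Collagen VI, with its chains pointing opposite ways, summed to close values, at 1.08-fold (0.997 to 1.18) and 1.10-fold (1.05 to 1.15) in the Pi16 over the Adamdec1 type.

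The Bmp and Wnt5a type was marked by 2 collagen IV chains. Col4a5 had 63 and 149 UMIs there, or 688 CPM (528 to 880) and 953 CPM (806 to 1119), and Col4a6 had 71 and 113 UMIs, or 775 CPM (605 to 978) and 723 CPM (596 to 869). In the Adamdec1 type Col4a5 stood at 43.9 and 47.7 CPM and Col4a6 at 18.1 and 27.3 CPM, and in the Pi16 type at 14.6 and 14.1 CPM and at 0 and 3.33 CPM. The chains encoded by these genes assemble together in a form of collagen IV found in basement membranes of epithelium and smooth muscle. Col4a5 was 15.7-fold (9.05 to 28.5) and 20.0-fold (14.4 to 28.2) above the Adamdec1 type, and Col4a6 42.8-fold (19.7 to 110) and 26.5-fold (17.4 to 41.7). Against the Pi16 type, Col4a6 in WT was at least 88.6-fold higher. Smooth muscle markers moved with these genes. They summed to 1823 and 1951 CPM in the Bmp and Wnt5a type, with 4 and 6 of 9 detected, against 119.5 and 123 CPM in the Pi16 type and 165 and 168 CPM in the Adamdec1 type. Acta2, an actin of contractile cells, gave most of it at 1539 and 1599 CPM, while Actg2, Cnn1 and Synm had no UMI. Smooth muscle-like cells themselves held Col4a5 at 33.9 and 164 CPM and Col4a6 at 59.4 and 71.1 CPM. Without the 3 and 14 Bmp and Wnt5a cells that carried at least 3 markers of another class, the ratio over the Adamdec1 type was 16.7 and 15.1 for Col4a5 and 53.5 and 21.8 for Col4a6.

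Many single cells of this type carried both genes. As each gene was found in most of its cells, many would carry both even if the genes were detected independently. The joint counts are thus no measure of how closely the 2 genes go together cell by cell. Of 23 and 34 Bmp and Wnt5a cells, 18 and 26 carried Col4a5, 18 and 27 carried Col4a6, and 14 and 23 carried both. Both were found in 1 of 74 and 4 of 219 Adamdec1 cells and in 0 of 91 and 0 of 363 Pi16 cells. No cell was the sole source, although the 5 cells with the most UMIs held 54.0% and 45.6% of the Col4a5 UMIs of the class. The usual pair, Col4a1 and Col4a2, did not follow: Col4a2 stood at 513 and 563 CPM against 620 and 681 CPM in the Adamdec1 type, and Col4a1 at 32.7 and 51.2 CPM against 90.5 and 142 CPM, from 3 and 8 UMIs. With thinned cells the Col4a5 ratio over the Adamdec1 type was 48.3 in WT and 11.5 in AD. Against the Adamdec1 type 20 members had at least 30 UMIs over the 2 types in both libraries, and so could pass through 1 type alone. Of these, 3 were at least 2-fold higher (Col4a5, Col4a6 and Col6a3), beside 5.10% of all genes, and 4 at least 2-fold lower (Col14a1, Col15a1, Col4a1 and Col6a5), beside 7.10%.

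**Figure D3:**
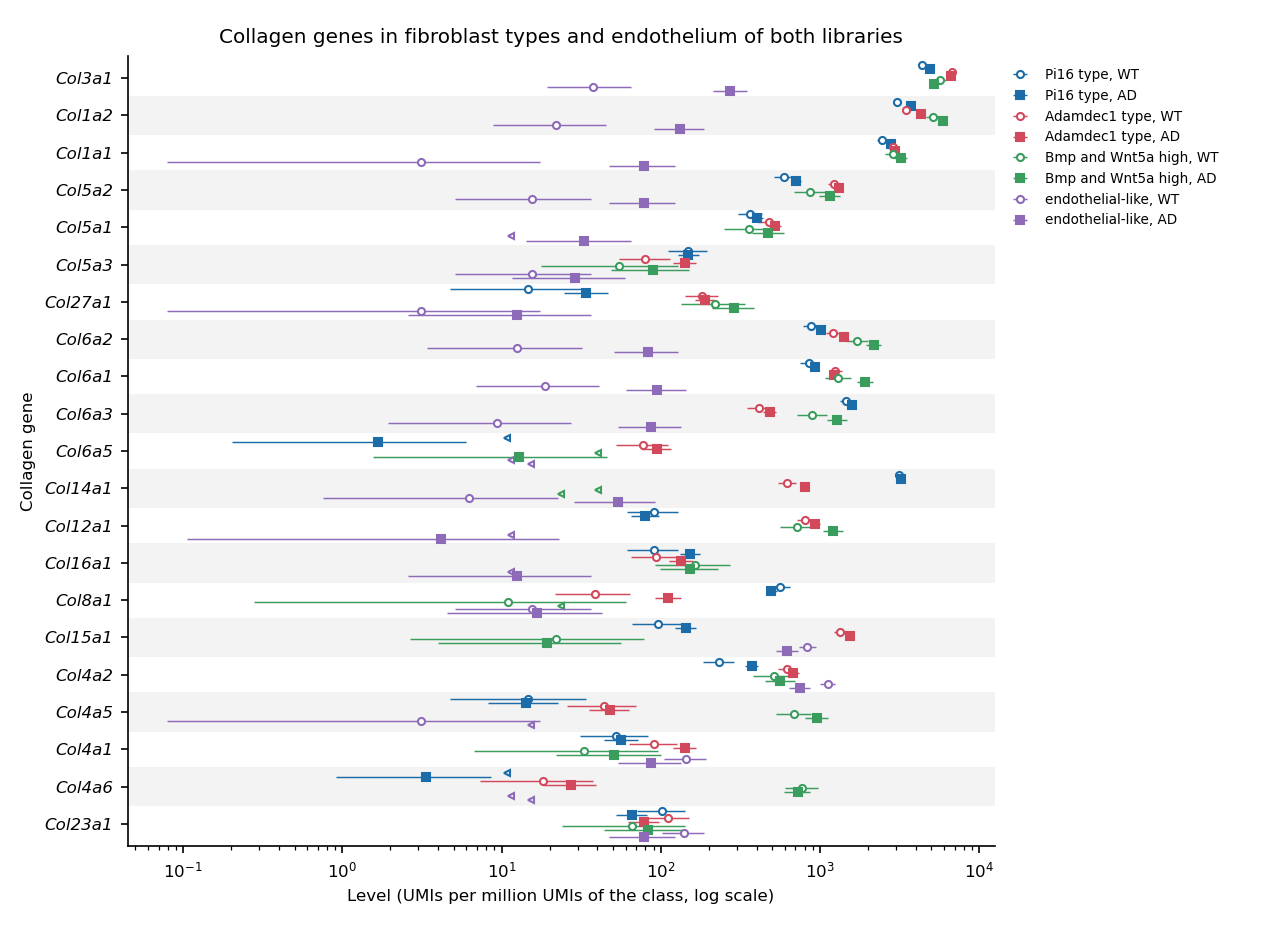
Levels of the collagen genes with the most UMIs in 3 fibroblast types and in endothelial-like cells, as CPM on a log axis, with 95% Poisson intervals. Open circles are WT and filled squares AD, and triangles mark genes with no UMI, drawn at the upper bound of their interval. Col4a5 and Col4a6 stand high in the Bmp and Wnt5a type, Col15a1 in the Adamdec1 type and endothelium, and Col14a1 in the Pi16 type.

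The unnamed fibroblast-like cells held 3 sub-clusters that differed in collagen. One, led by Ptn, Smoc2 and Epha3 (24 and 25 cells), held collagen at 2.09% and 1.70% of UMIs, with Col6a3 at 2862 and 2017 CPM, Col8a1 at 578 and 580 CPM and Col15a1 at 799 and 455 CPM. This sub-cluster thus joined members that were divided between the Pi16 and Adamdec1 types. Another, led by Hbb-bs, Cxcl13 and Pigbos1 (23 and 95 cells), held 1.60% and 2.11%, with a median of only 968 and 1320 UMIs per cell. The last, led by the immunoglobulin genes Jchain and Igha with Gsdmc4 (2 and 56 cells), held 0.867% and 0.956%. Immunoglobulin RNA was 0.0167% and 4.05% of UMIs over all unnamed cells, and its part in their collagen level was not tested.

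Endothelium carried collagens in other proportions. Of 22 members with at least 30 UMIs in both libraries, 17 were at least 2-fold lower than in fibroblast-like cells, beside 11.9% of all genes, and 1, Col13a1, was at least 2-fold higher, beside 9.71%. The minimum was met by the 2 classes summed, and fibroblast-like cells held 1007776 and 2963750 UMIs, endothelial-like cells 320712 and 241403. Members such as Col12a1, with 448 fibroblast-like and 0 endothelial-like UMIs in WT, passed through fibroblasts alone. The count of 17 is thus no measure of how far endothelium differs. Collagen IV and multiplexins, which gave 3.45% and 3.50% of collagen UMIs in WT fibroblast-like cells, gave 48.8% and 32.5% in WT endothelial-like cells. In AD the endothelial shares were 31.6% and 23.7%. Col4a2 led with 358 and 180 UMIs, at 1116 and 746 CPM. Its partner chain Col4a1 stood at 143 and 87.0 CPM. Col15a1 stood at 833 and 621 CPM, 1.19-fold (1.03 to 1.37) and 0.889-fold (0.748 to 1.05) the fibroblast-like level.

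Transmembrane collagens, which stay anchored in the plasma membrane, followed. Col13a1, found at cell adhesion sites, stood at 150 and 91.1 CPM against 10.9 and 5.06 CPM in fibroblast-like cells, 13.7-fold (7.02 to 29.3) and 18.0-fold (8.93 to 37.3) higher. Col23a1 stood at 140 and 78.7 CPM. Blood and lymphatic endothelium differed among these genes. In blood endothelium (87 and 79 cells) Col15a1 stood at 949 and 708 CPM, while lymphatic endothelium (12 and 7 cells) had no UMI in either library, with intervals that reach 93.5 and 125 CPM. Col13a1 had 48 and 21 UMIs in blood and 0 and 1 in lymphatic endothelium. Col23a1 went the other way in WT, with 634 CPM (410 to 936) in lymphatic and 71.1 CPM (43.4 to 110) in blood endothelium. In AD it did not, with 1 UMI in the 7 lymphatic cells. Col4a2 was found in both, at 1205 and 784 CPM in blood and 482 and 473 CPM in lymphatic endothelium.

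As UMIs summed over cells, the endothelium of the AD library held less Col4a2 and Col15a1 and more fibrillar collagen. Col4a2 was lower, at 0.668 (0.555 to 0.801) of its WT level, Col15a1 at 0.746 (0.607 to 0.915) and Col23a1 at 0.561 (0.310 to 0.979). The 5 cells with the most UMIs held 39.1% and 26.1% of Col4a2 UMIs, and 29.6% and 30.7% for Col15a1. Of thinned cells, 49.4% (38.4 to 60.5) and 43.1% (31.4 to 55.3) carried Col4a2. For Col15a1 these were 48.2% (37.3 to 59.3) and 41.7% (30.2 to 53.9), so intervals of the libraries overlapped for both genes. By cluster, Col23a1 had 25 and 1 UMIs in the 12 and 7 lymphatic cells. In blood endothelium it stood at 71.1 CPM (43.4 to 110) and 85.0 CPM (50.4 to 134). Whether the number of lymphatic cells or the level in them went with the lower Col23a1 sum was not tested. Lymphatic markers over all endothelial-like cells summed to 2526 and 1143 CPM, with 5 and 5 of 6 detected. Col4a1 at 0.607 (0.344 to 1.04) and Col13a1 at 0.609 (0.350 to 1.03) had intervals that reached 1. Of 7 members with at least 30 UMIs, 0 were at least 2-fold lower in AD, beside 3.90% of all genes, and 2 were at least 2-fold higher, beside 3.93%. These were Col3a1, with 12 and 66 UMIs (7.31-fold, 3.92 to 14.9), and Col1a2, with 7 and 32 UMIs (6.07-fold, 2.63 to 16.3). Fibrillar collagens together stood at 99.8 and 642 CPM (6.44-fold, 4.38 to 9.73), and collagen VI had 13 and 66 UMIs. The sum over all members was nearly equal, at 1.03 (0.930 to 1.14), since these opposite differences offset each other.

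Markers of other cells moved with this result. In the same cells the 12 endothelial markers summed to 11309 and 8857 CPM, a ratio of 0.783 (0.742 to 0.826), with 11 of 12 lower in AD. The 7 pericyte markers, all of them with UMIs in both libraries, summed to 580 and 1889 CPM. The 11 fibroblast markers summed to 168 and 518 CPM, with 6 and 6 of them detected, and Dpt, Tcf21, Gas1 and Mmp2 had no UMI in either library. The 9 smooth muscle markers summed to 99.8 and 331 CPM, with 6 and 7 detected. Plasma cell markers summed to 421 and 24619 CPM, with 3 and 5 of 6 detected.

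Endothelial-like cells without any UMI of the pericyte, fibroblast and smooth muscle markers numbered 64 and 40. In them Col4a2 stood at 1537 and 934 CPM, a ratio of 0.608 (0.460 to 0.794), and Col15a1 at 0.747 (0.562 to 0.983) of its WT level. Fibrillar collagens had 3 and 11 UMIs in them (8.34-fold, 2.20 to 46.5). In the 24 and 26 cells with 1 or 2 such markers, Col4a2 was at 0.872 (0.555 to 1.36) and Col15a1 at 0.976 (0.614 to 1.55), intervals that span 1. Cells with at least 3 such markers numbered 11 and 20 and held 28 of the 32 and 125 of the 155 fibrillar UMIs. Without cells carrying at least 3 markers of any other class, Col3a1 had 0 and 8 UMIs, at least 4.67-fold higher in AD, and the sum over all members was 0.787 (0.673 to 0.918) of WT. The part of the plasma cell RNA in these differences was not tested. Of 18 immediate early and stress genes, which respond to handling, 3 were at least 2-fold higher in AD endothelium, beside 3.93% of all genes. They were Klf6 at 2.76-fold, Nr4a1 at 2.02-fold and Hspa1a at 2.21-fold. The list as a whole was higher in AD, with a median log2 ratio of 0.67 beside −0.03 over all genes. Its 18 genes summed to 11842 and 18575 CPM. The part of these genes was not tested either.

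In fibroblasts the AD and WT libraries were close. Collagen UMIs in all fibroblast-like cells stood at 1.03 (1.01 to 1.05) of WT, in the Pi16 type at 1.13 (1.10 to 1.16), in the Adamdec1 type at 1.09 (1.07 to 1.12) and in the Bmp and Wnt5a type at 1.16 (1.10 to 1.22). Unnamed cells went the other way, at 0.730 (0.701 to 0.759). Of 26 members with at least 30 UMIs in fibroblast-like cells, 0 were at least 2-fold higher in AD, beside 4.83% of all genes, and 1 was at least 2-fold lower, beside 1.85%. That gene was Col8a2, with 15 and 20 UMIs (0.453, 0.221 to 0.952), and it was not called without the unnamed cells. The median log2 ratio over members was 0.04, beside −0.01 over all genes.

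Within types, few members passed 2-fold. In the Pi16 type 1 of 18 was higher, beside 3.98% of all genes, and 0 were lower, beside 2.84%. The gene was Col27a1, with 5 and 41 UMIs, a ratio of 2.34 whose interval (0.926 to 7.59) spans 1. In the Adamdec1 type 1 of 23 was higher, beside 4.13%, and 0 were lower, beside 2.14%. The gene was Col8a1, with 15 and 114 UMIs, at 2.86 (1.67 to 5.28). It stood at 0.798 when types were drawn by the larger marker sum, so its direction depended on how the types were drawn. That rule splits all fibroblast-like cells, so it also brings Bmp and Wnt5a cells and unnamed cells into the 2 types. In the Pi16 type 8 of 18 members had intervals above 1, beside 6.83% of all genes, and 1 had an interval below 1, beside 7.10%. In the Adamdec1 type these were 8 of 23, beside 7.70%, and 0, beside 6.96%. Such shares also depend on how many UMIs a gene holds. Median log2 ratios were 0.16 and 0.21, beside −0.01 and 0.00 over all genes.

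Col1a2 had intervals above 1 in all 3 fibroblast types, at 1.23 (1.15 to 1.32) in the Pi16 type, 1.24 (1.17 to 1.32) in the Adamdec1 type and 1.15 (1.03 to 1.29) in the Bmp and Wnt5a type. Col1a1, its partner, was at 1.14 (1.06 to 1.23), 1.03 (0.962 to 1.11) and 1.11 (0.956 to 1.30). Col3a1 was at 1.13 (1.07 to 1.19), 0.985 (0.942 to 1.03) and 0.910 (0.814 to 1.02). Col4a2 stood at 1.60 (1.26 to 2.06) in the Pi16 type and at 1.10 (0.946 to 1.28) in the Adamdec1 type. Col23a1 was lower in AD in the Pi16 type, at 0.645 (0.428 to 0.989). Plasma cell markers summed to 172 and 3619 CPM in the Pi16 type, with 2 and 6 of 6 detected, and to 235 and 2860 CPM in the Adamdec1 type, with 4 and 5 detected. Mesothelial markers summed to 149 and 4.16 CPM in the Pi16 type. Their part in these ratios was not tested.

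**Figure D4:**
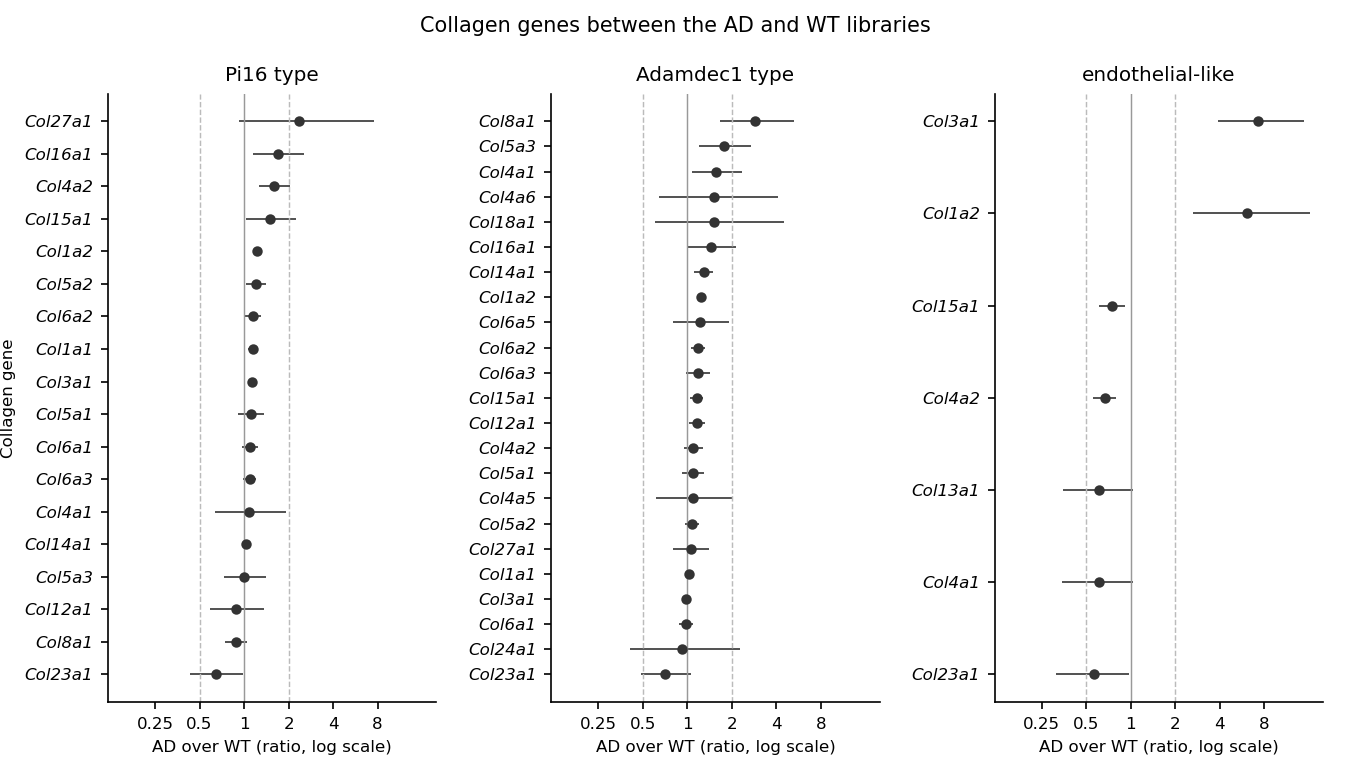
AD over WT ratio of each collagen gene with at least 30 UMIs, on a log axis, in the Pi16 type, the Adamdec1 type and endothelial-like cells, with 95% counting intervals. Dashed lines mark 2-fold either way. Most fibroblast ratios lie at or a little above 1, while in endothelium Col3a1 and Col1a2 lie far above 1 and the other 5 genes below it.

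Members under 30 UMIs were given no ratio: 18 in fibroblast-like cells, 26 in the Pi16 type, 21 in the Adamdec1 type, 37 in endothelial-like and 23 in epithelial-like cells. Among these, 2, 5, 3, 10 and 1 had no UMI at all. At the border in fibroblast-like cells stood Col8a2 with 35 UMIs over both libraries, just inside, and Col13a1 with 26, just outside. In endothelial-like cells these were Col1a2 with 39 and Col6a1 with 29.

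Genes that process collagen were compared between the types from lists chosen with earlier results known. The shares of all genes past 2-fold were 8.19% on the Pi16 side and 9.81% on the Adamdec1 side in WT, and 6.45% and 7.56% in AD, and list counts of 1 gene lie near these shares. Among 19 collagen-modifying enzymes and chaperones, of which 8 and 14 had enough UMIs, 0 were at least 2-fold higher in the Pi16 type and 1 was lower in each library. Serpinh1, the collagen chaperone, stood at 1.13 (0.960 to 1.32) and 1.09 (1.01 to 1.18). In the procollagen cleavage and crosslinking list 1 gene was higher and 1 lower, of 7 in WT and 8 in AD. The higher one was Pcolce2, which promotes the cleavage of the procollagen tail, with 198 and 669 UMIs in the Pi16 type against 0 and 1 in the Adamdec1 type, at least 74.4-fold in WT. Its relative Pcolce was at 0.927 (0.741 to 1.16) and 1.02 (0.906 to 1.15). Elastic fibre genes were divided between the types: Fbn1, the fibrillin, was 2.56-fold and 2.21-fold higher in the Pi16 type, while Fbln5 stood at 0.287 and 0.400 and Ltbp1 at 0.180 and 0.212. Of this list 1 gene was higher and 4 lower, of 12 in WT and of 13 in AD. Among laminins, nidogens and basement membrane proteoglycans 2 were higher and 0 lower of 7 in WT, and 3 higher and 3 lower of 11 in AD. Nid1, a linker of collagen IV and laminin, was 3.71-fold and 2.37-fold higher in the Pi16 type. Of the transforming growth factor beta list 1 was higher and 2 lower of 7 in WT, and 2 higher and 1 lower of 9 in AD. Its member Postn, a matrix protein that binds fibrils, stood at 0.254 and 0.279, and Bgn, one of 2 proteoglycans of fibrils with enough UMIs, at 0.555 and 0.558.

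Of collagen receptors 2 were higher and 0 lower of 4 in WT, and 1 higher and 1 lower of 6 in AD. Itga11, a collagen-binding integrin of fibroblasts, was 3.90-fold (1.95 to 8.45) and 2.06-fold (1.54 to 2.76) higher in the Pi16 than in the Adamdec1 type. Itga1, which pairs with Itgb1 to bind collagen IV, was 12.9-fold and 9.02-fold higher in endothelial-like than in fibroblast-like cells. Ddr2, a receptor kinase for fibrillar collagen, had 1 and 4 UMIs in endothelial-like cells. Immediate early genes, which respond to dissociation, were higher in the Pi16 type for 3 of 18 genes and lower for 0 in each library, with Egr1 at 2.04-fold and 2.00-fold. Their part in the division of collagens was not tested.

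Between genotypes, no enzyme, crosslinking, elastic fibre, receptor or proteoglycan gene reached 2-fold in fibroblast-like cells, of 15, 11, 13, 7 and 2 with enough UMIs, and 1 of 12 laminin, nidogen and basement membrane proteoglycan genes was higher. Of all genes in these cells, 4.83% were at least 2-fold higher in AD and 1.85% lower. Within types some passed. In the Adamdec1 type 3 of 5 collagen receptors were at least 2-fold higher in AD, beside 4.13% of all genes. Among them were Mrc2, an uptake receptor for collagen, at 2.08 (1.39 to 3.20) and Itga11 at 2.36 (1.24 to 4.95), from 29 and 160 and from 11 and 69 UMIs. In the same type 1 of 14 enzymes was higher, and of 9 genes of the transforming growth factor beta list 1 was higher and 1 lower, beside 2.14% of all genes lower. In the Pi16 type 1 of 18 immediate early genes was higher, Nr4a1 at 2.39 (1.94 to 2.96), beside 3.98% of all genes. Counts of 1 gene in lists this short cannot be set apart from these shares. In all fibroblast-like cells the median log2 ratio of the enzyme and chaperone list was 0.20, beside −0.01 over all genes. Within it Serpinh1 stood at 1.35 (1.26 to 1.46), and in the Pi16 and Adamdec1 types at 1.38 (1.22 to 1.56) and 1.42 (1.25 to 1.62). Bgn stood at 1.30 (1.23 to 1.38) and Eln, which encodes elastin, at 1.36 (1.22 to 1.52). Of the transforming growth factor beta list 0 of 9 passed 2-fold, with the target gene Ccn2 at 1.46 (1.16 to 1.85). Immediate early genes stood at 0 of 18 past 2-fold, with Nr4a1 at 1.91 and Klf6 at 1.64.

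In epithelium the collagen level in CPM was, for most genes, no higher than in lymphocytes. All collagen genes summed to 77.8 and 129 CPM in epithelial-like cells and to 79.3 and 178 CPM in B-like and T-like cells, which are not known to make collagen, at ratios of 0.981 (0.801 to 1.21) and 0.726 (0.652 to 0.811). The values of lymphocytes serve here as a level for comparison, in CPM and not matched for depth. The median epithelial-like cell held 10106 and 9533 UMIs, the median B-like cell 2478 and 1973, and the median T-like cell 3169 and 2088. RNA from outside the cells was not measured, and its part in the epithelial or lymphocyte levels was not tested. Epithelial-like cells were 1.66-fold (1.52 to 1.81) higher in AD, and B-like and T-like cells were 1.87-fold (1.36 to 2.61) and 2.59-fold (1.94 to 3.51) higher. Of 21 epithelial members, 7 were at least 2-fold higher in AD, beside 2.74% of all genes, and 0 lower, beside 5.14%. The 7 were Col1a1, Col1a2, Col5a1, Col5a2, Col6a3, Col14a1 and Col20a1. Among them Col14a1 had 10 and 109 UMIs, Col1a1 25 and 127, and Col1a2 39 and 195. In the AD library each of these 3 stood below the lymphocyte level, at 0.398, 0.511 and 0.470 of it, and in the WT library at 0.409, 1.02 and 0.798, so no epithelial difference was read from these 3. Col20a1 differed, with 30 and 151 UMIs at 0.447 (0.218 to 0.988) of the lymphocyte level in WT and 1.52 in AD, where the interval spans 1.

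Over all epithelial-like cells, Col8a1 was the single member above the lymphocyte level beyond its interval in both libraries. It had 132 and 491 UMIs in epithelial-like cells, or 15.4 and 27.2 CPM, against 1 and 5 UMIs, or 0.715 and 2.29 CPM, in lymphocytes. The ratios were 21.6 (3.81 to 860) and 11.8 (5.04 to 36.6). It made up 19.8% and 21.0% of epithelial collagen UMIs, against 1.43% and 1.30% in fibroblast-like cells. Its share of collagen UMIs in epithelium thus lay far above its share in fibroblasts.

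Col8a1 stood highest in secretory clusters. In the cluster led by Ang4, Spink4 and Clca1, genes of goblet and deep crypt secretory cells, it stood at 49.5 CPM (40.1 to 60.5) and 66.4 CPM (60.0 to 73.4), from 96 and 387 UMIs. In the cluster led by the enterochromaffin genes Chgb, Chga and Tph1 it stood at 37.7 CPM (22.3 to 59.6) and 91.8 CPM (66.2 to 124). In the cluster led by the hormone genes Pyy, Insl5 and Gcg it stood at 109 CPM (54.5 to 195) and 175 CPM (122 to 243), from 8 and 18 cells. These 3 clusters lay above the other epithelial clusters drawn, which stood at 3.33 CPM or less, though still below the Pi16 type. In the Ang4 cluster 28 of 108 and 123 of 497 cells carried a UMI, 25.9% and 24.7%, with a median of 12370 and 8973 UMIs per cell. Of lymphocytes 0.211% and 0.514% did, with a median of 2786 and 2006 UMIs. Thinned to 1000 UMIs, the shares were 2.00% (0.243 to 7.04) and 5.75% (3.79 to 8.32), against 0.229% (0.00581 to 1.27) and 0.120% (0.00304 to 0.666). In WT these intervals overlapped, from 2 of 100 and 1 of 436 cells. Of thinned Chgb cluster cells 1 of 49 and 5 of 54 carried a UMI, and of Pyy cluster cells 1 of 8 and 1 of 16. Other members stood out within a cluster of 1 library. Col6a5 had 16 UMIs in the Chgb cluster of WT, or 33.5 CPM (19.2 to 54.4), against 0 UMIs in WT lymphocytes and 4 UMIs in all AD epithelium. Col23a1, a transmembrane collagen, stood at 32.8 CPM (18.4 to 54.1) in the Chgb cluster of AD against 6.43 CPM in lymphocytes. Col20a1, a fibril-associated collagen, stood at 17.2 CPM (14.0 to 20.9) in the Ang4 cluster of AD against 5.51 CPM in lymphocytes. For Col8a1, AD over WT in all epithelial-like cells was 1.76 (1.45 to 2.15), and these clusters made up different shares of the epithelium in the 2 libraries, 108 of 561 cells and 497 of 1551 for the Ang4 cluster.

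**Figure D5:**
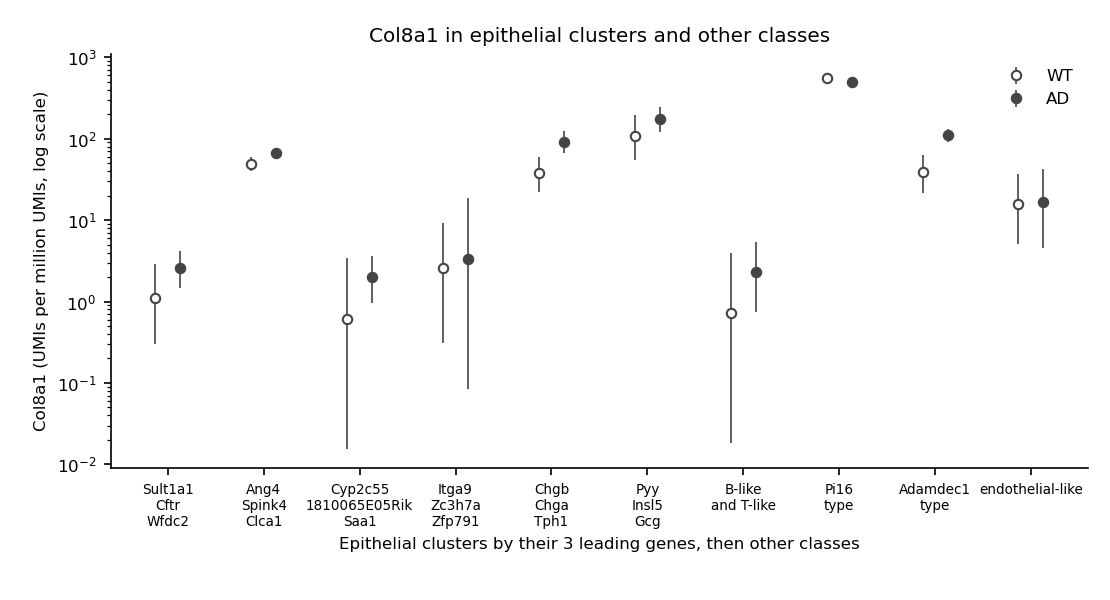
Col8a1 as CPM on a log axis, in epithelial clusters named by their 3 leading genes and in other classes, with 95% Poisson intervals. Open circles are WT and filled circles AD, and 2 small clusters with no Col8a1 UMI are not drawn. The clusters led by Ang4, Chgb and Pyy stand between 37.7 and 175, above other epithelial clusters and lymphocytes and below the Pi16 type.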

How the data were processed

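Single-cell RNA libraries of the colon were made from WT and AD model mice, 1 per genotype. The files hold raw UMI counts per gene and barcode, which the authors deposited. Per the submitters' processing notes the tools were Cell Ranger 3.0.1, STAR and Seurat 3.0.2 with build mm10, and their settings are not given in the sources used here. A barcode was kept as a cell if it had 500 or more UMIs, 200 or more genes and no more than 25% of UMIs from mitochondrial genes. Both libraries were clustered together with scanpy 1.11.5 and leidenalg 0.10.2 (resolution 1, 2000 variable genes, 30 components, 15 neighbours, fibroblasts again at resolution 0.5), with the 44 collagen genes left out. A cluster was named where at least 3 markers of a class, and a share of at least 0.3 of its list, passed. A marker passed if found in at least 10% of the cluster's cells at 4 times its median level over clusters. Except for epithelium, a marker also had to be among the 30 leading genes of the cluster. Within fibroblasts the limit was 2 times the level in the other fibroblast-like cells, without the leading gene rule. For naming, 10 CPM was added to both levels. These naming thresholds were set after seeing the data, no doublet caller was used, and rebuilt names may differ from the study's.

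UMIs were summed per library and class. Levels have exact Poisson 95% intervals and ratios an exact interval conditional on the total (scipy 1.17.1). A call needed 30 UMIs over the sums compared and a 2-fold ratio with 0.5 added to each sum. With 1 library a group, there was no test. A sum of 0 was set against a floor of 3 counts. Cells were thinned to 1000 UMIs for per-cell values. Any collagen gene could be named. Genes of other lists were named by UMIs (at least 100 over both libraries) or by ratio, and markers to describe their class. The members, lists and comparisons were chosen with earlier results of these data known. The intervals and calls were tested on simulated counts that held counting error only. Variation between cells, animals or libraries was not simulated, so that test says nothing about it. Alternatives were other filters, resolutions, thresholds and rules for types, and 2 were chosen after seeing the data (without unnamed and lymphatic cells, and without immunoglobulin UMIs). Some details of the strain and 1 gene of a list are not reported here.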

Additional observations from a re-analysis of the deposited data

How the results depend on the processing

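Of 106 alternative values of the class sums and of the count past 2-fold, 63 stayed within the main value's interval or within 1.5 times the main count, 43 moved and 0 reversed; of 290 for single genes, 254 stayed, 35 moved and 1 reversed. The cause of these shifts was not tested. The AD over WT ratio of collagen UMIs in fibroblast-like cells was 1.06 at most 10% mitochondrial UMIs, 1.07 with 1000 UMIs per cell, 1.05 with each library clustered alone, 1.07 without cells carrying 3 or more markers of another class, 1.05 with thinned cells and 1.10 without unnamed cells. In the Pi16 type it was 1.06 at most 10% mitochondrial UMIs, 1.16 with libraries clustered alone, 1.08 without cells with other markers and 1.06 with types drawn by the larger marker sum. In the Adamdec1 type it was 1.06 with thinned cells, 1.06 as a mean over cells and 1.03 by the larger marker sum, where the Col8a1 ratio reversed to 0.798. In endothelial-like cells it was 0.926 at most 10% mitochondrial UMIs and 0.787 without cells with other markers. In epithelial-like cells it was 2.35 at most 50% mitochondrial UMIs, 1.93 with 1000 UMIs per cell, 1.95 at resolution 2, 2.07 without cells with other markers, 1.97 with thinned cells and 2.09 as a mean over cells. The Pi16 over Adamdec1 ratio in WT was 0.961 at most 10% and 0.895 at most 50% mitochondrial UMIs, 0.918 with collagen genes kept in clustering, 0.788 thinned, 0.782 as a mean over cells and 0.903 by the larger marker sum. In AD it was 0.915 and 0.894 at those limits, 0.897 at resolution 0.5, 0.935 with collagen genes kept, 0.855 without cells with other markers, 0.852 thinned, 0.816 as a mean over cells and 0.930 by the larger marker sum. The count of members past 2-fold in fibroblast-like cells, 1 in the report, was 2 at most 10% and 2 at most 50% mitochondrial UMIs, 2 without cells with other markers, 3 as a mean over cells, 4 from 10 UMIs, 0 from 100 UMIs, 3 at 1.5-fold and 0 without unnamed cells. No value could be had for Col15a1 and Col27a1 (Pi16 over Adamdec1 type, WT) at most 10% mitochondrial UMIs, for Col4a6 (Bmp and Wnt5a over Adamdec1 type, WT) with thinned cells, or for Col3a1 in endothelium without cells with other markers. No paired analysis was possible because each genotype has 1 library, and no replicate could be left out. Depth limits most the rarer members in the 23 and 34 Bmp and Wnt5a cells and the 12 and 7 lymphatic cells, where intervals are wide.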
